A study of Mus musculus with 1824 samples.

Results

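The 5 beta-like globin genes *Hbb-bh1*, *Hbb-y*, *Hbb-bh0*, *Hbb-bs* and *Hbb-bt*, found by symbol among the 55487 genes of the count table, were followed in single cells of the primitive red blood lineage. For each cell, the reads of a gene were divided by the summed reads of the 5 genes, and this share is given in percent. Shares were taken in cells with at least 100000 reads in all and at least 100 reads on the 5 genes. On the 3 plates that carried nearly all of these reads, E7.5 lane plate 1, E8.5 plate 1 and E8.5 plate 2, this left 63 of 93, 87 of 92 and 87 of 91 cells with enough reads in all. The cell nearest to the limit from above had 1.04 times the minimum of 100 reads on the 5 genes and the nearest of the 39 cells below it had 0.76 times.

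RNA was measured by Smart-seq2, which reads whole transcripts from cells sorted into 96-well plates, in 1824 cells on 19 plates. For each cell the labels give the strain CD1 and the embryonic day, 7.5 (11 plates) or 8.5 (8 plates). Cells were sorted into a buffer with the GpC methylase M.CviPI, apart from some that the labels do not name. The study injected fluorescently tagged embryonic stem cells without *Tet1*, *Tet2* and *Tet3* (*Tet*-TKO) into C57BL/6J blastocysts carried by CD1 females, pooled the chimaeric embryos and sorted living single cells by KDR, CD41 and the fluorescent tag. The labels do not say which wells hold knockout and which hold host cells, or which gate filled a plate. Genotype, gate, protocol, stage and plate therefore cannot be told apart on the 3 plates. No animal is named for them either. Each stage was therefore 1 sample, the cells of a plate were not treated as replicates, and no test between groups was made. Spread is given over cells and over plates, and intervals are exact 95% intervals. These cover counting error and nothing else, because copies of 1 molecule made by amplification are counted as separate reads. Median depth on the 19 plates ran from 224956 to 1699480 reads in cells with at least 100000.

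Haemoglobin is built from 2 alpha-like and 2 beta-like chains. In the mouse, primitive erythrocytes form in the blood islands of the yolk sac and fill with embryonic haemoglobin, whose beta-like chains come from *Hbb-bh1* and *Hbb-y*. The adult chains come from *Hbb-bs* and *Hbb-bt*, at the other end of the locus from the embryonic genes. A distant upstream control region serves the whole cluster, and primitive cells are known to use *Hbb-bh1* early and *Hbb-y* later as they mature.

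All members lie on the minus strand of chromosome 7 of GRCm38. From the upstream end they are *Hbb-y* (chr7:103851749-103853216), *Hbb-bh0* (chr7:103850020-103850148), *Hbb-bh1* (chr7:103841637-103843164), *Hbb-bs* (chr7:103826534-103828096) and *Hbb-bt* (chr7:103812524-103813996). *Hbb-bh0*, annotated as an unprocessed pseudogene, has a single exon of 0.129 kb between the embryonic genes. It starts 1600 bases downstream of *Hbb-y* and ends 6855 bases upstream of *Hbb-bh1*. The exons of the other members add up to 0.633 kb for *Hbb-y*, 0.613 kb for *Hbb-bh1*, 0.768 kb for *Hbb-bs* and 0.703 kb for *Hbb-bt*. The embryonic pair have nearly the same length, so their read shares can be set side by side, whereas reads understate *Hbb-bh0*.

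The sequence of *Hbb-bh0* is shown because its reads could be taken for those of its neighbours. Capitals mark the longest run it shares with another member, 24 bases of *Hbb-bh1*.
*Hbb-bh0* exon: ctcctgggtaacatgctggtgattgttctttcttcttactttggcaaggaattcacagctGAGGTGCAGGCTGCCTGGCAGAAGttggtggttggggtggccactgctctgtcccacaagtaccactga
Over this exon it was 87.6% identical to *Hbb-bh1* and 88.4% to *Hbb-y*. None of its stretches of 75 bases, the read length, occurred in another member, and the same held for *Hbb-bh1* and *Hbb-y*, which were 78.6% identical to each other. *Hbb-bs* and *Hbb-bt* were 93.1% identical, and 51.5% of the 75-base stretches of *Hbb-bs* and 56.6% of those of *Hbb-bt* occurred in both. How the counting treated reads that fit both was not stated, so the split between the adult genes is uncertain and they are mostly given as a sum.

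The 250 bases before the start of *Hbb-y* are shown as the promoter of 1 of the embryonic pair, whose shares varied most between cells (RefSeq, GRCm38.p6, chr7:103853208-103853457, minus strand). Entries matched 3 of the 5 members, *Hbb-y*, *Hbb-bs* and *Hbb-bt*. Capitals mark matches to the letters CACCC, to the letters CCAAT, to the letters ATAAA and to the letters GATAA, the last on the other strand.
*Hbb-y* promoter: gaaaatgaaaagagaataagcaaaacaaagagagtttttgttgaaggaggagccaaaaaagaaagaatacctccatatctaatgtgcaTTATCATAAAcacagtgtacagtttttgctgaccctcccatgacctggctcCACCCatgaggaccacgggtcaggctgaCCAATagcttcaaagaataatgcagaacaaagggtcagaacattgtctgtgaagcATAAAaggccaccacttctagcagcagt
Counted from the start, CACCC began at -111, CCAAT at -83, the reversed GATAA at -162 and ATAAA at -157, directly after the reversed GATAA, and at -28. These letters are bound in other genes by Krüppel-like factors, NF-Y, GATA factors and the TATA-binding protein. The GENCODE model of *Hbb-y* starts at chr7:103853216, so the end of the printed window overlaps its first exon. The windows of *Hbb-bs* and *Hbb-bt* reach further into exons of the GENCODE models and are not printed. That of *Hbb-bs* held 1 match to each of these except the letters ATAAA, which had none. That of *Hbb-bt* held CACCC at 3 places and CCAAT at 3, and the other letters at 1 place each. Of 32851 windows of this length before mouse genes, 52.01% held CACCC on either strand, 33.8% CCAAT, 22.6% GATAA and 37.3% ATAAA.

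The cells were checked against markers of the red lineage and of other cell types. All 12 erythroid markers were above 10 reads per 1000000 reads (CPM) in the summed cells of each plate, among them *Klf1* and *Gata1*, transcription factors of the red lineage, and *Alas2*, which starts haem synthesis in red cells. The summed level of the 12 ran from 0.9 to 8788 CPM between cells of E7.5 lane plate 1, with a median of 4079. Markers of other blood cell types passed the limit of 10 CPM too. Of the 9 blood progenitor markers, 9, 8 and 9 passed it on E7.5 lane plate 1, E8.5 plate 1 and E8.5 plate 2. Of the 10 megakaryocyte markers 8, 3 and 5 passed, and of the 12 haematoendothelial markers 10, 2 and 5. Not every cell matched the name erythrocyte, however. When all cells were clustered without globin genes, the cells with shares fell into an erythroid-like class in 59 of 63 cells of E7.5 lane plate 1, 73 of 87 of E8.5 plate 1 and 34 of 87 of E8.5 plate 2. The other 53 cells of E8.5 plate 2 were blood progenitor-like. *Slc4a1*, the band 3 anion exchanger of the mature membrane, had a read in 60.3% of cells on E7.5 lane plate 1, 100% on E8.5 plate 1 and 11.5% on E8.5 plate 2. On E8.5 plate 1, 12 cells were visceral endoderm-like, a yolk sac cell type, 1 was surface ectoderm-like and 1 was blood progenitor-like. On E7.5 lane plate 1, 4 cells were myeloid-like. Visceral endoderm markers summed to 9734 CPM over the 87 cells of E8.5 plate 1, against 29.1 CPM over the 74 of them with at least 5% of reads on globin genes, and the median shares are also given for those cells.

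*Hbb-bh1* was the main beta-like gene of most cells. Its share had a median of 82.99% on E7.5 lane plate 1, 48.7% on E8.5 plate 1 and 94.2% on E8.5 plate 2. Single cells ran from 3.96% to 99.95% on E7.5 lane plate 1, from 22.8% to 99.8% on E8.5 plate 1 and from 7.65% to 100% on E8.5 plate 2. The lowest cell was myeloid-like on E7.5 lane plate 1 and blood progenitor-like on E8.5 plate 2. The 3 ranges overlapped over most of their length. More than 90% of the reads fell on *Hbb-bh1* in 26 of 63 cells (41.3%, 29.006 to 54.4) on E7.5 lane plate 1. The same was true of 11 of 87 cells (12.6%, 6.48 to 21.5) on E8.5 plate 1 and of 49 of 87 cells (56.3%, 45.3 to 66.9) on E8.5 plate 2.

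*Hbb-y*, the other gene of the embryonic pair, spanned nearly the whole range from cell to cell when cells of every class were counted. Its median share was 5.69% on E7.5 lane plate 1, with cells from 0.00592% to 93.7%. The cell at 93.7% was myeloid-like with 0.0257% of its reads on globin genes. The highest erythroid-like cell of that plate was at 62.6%. The median on E8.5 plate 1 was 50.6%, with cells from 0.0712% to 76.5%. On E8.5 plate 2 it was 0.951%, with cells from 0 to 88.9%, and below the 1.28% of *Hbb-bh0*. Of its cells, 53 were blood progenitor-like, and the median was 17.8% in the erythroid-like class, 17.2% in cells with at least 5% globin and 30.2% in summed reads. On E7.5 lane plate 1 and E8.5 plate 1 the medians were 9.04% and 49.6% in cells with at least 5% globin, with 81.2% and 49.1% *Hbb-bh1*, and 79.1% *Hbb-bh1* on E8.5 plate 2. *Hbb-y* exceeded *Hbb-bh1* in 7.69%, 51.4% and 21.4% of those cells. The middle 50% of cells lay between 31.4% and 59.4% on E8.5 plate 1, and between 0.0754% and 18.96% on E8.5 plate 2. *Hbb-y* had more reads than *Hbb-bh1* in 5 of 63 cells on E7.5 lane plate 1 (7.94%, 2.63 to 17.6), 46 of 87 on E8.5 plate 1 (52.9%, 41.9 to 63.7) and 10 of 87 on E8.5 plate 2 (11.5%, 5.65 to 20.1). Divided by exonic length, these counts were 5, 44 and 10 cells. These intervals cover the counting of cells on 1 plate only. They do not compare the plates, which also differed in cell class. Of the cells with more *Hbb-y* reads, 2 of the 5 on E7.5 lane plate 1 had less than 0.1% globin. The same held for 7 of the 46 on E8.5 plate 1. The pair moved against each other, as the main parts of 1 sum tend to. The rank correlation of their shares over cells was -0.83, -0.999 and -0.88 on the 3 plates.

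**Figure D1:**
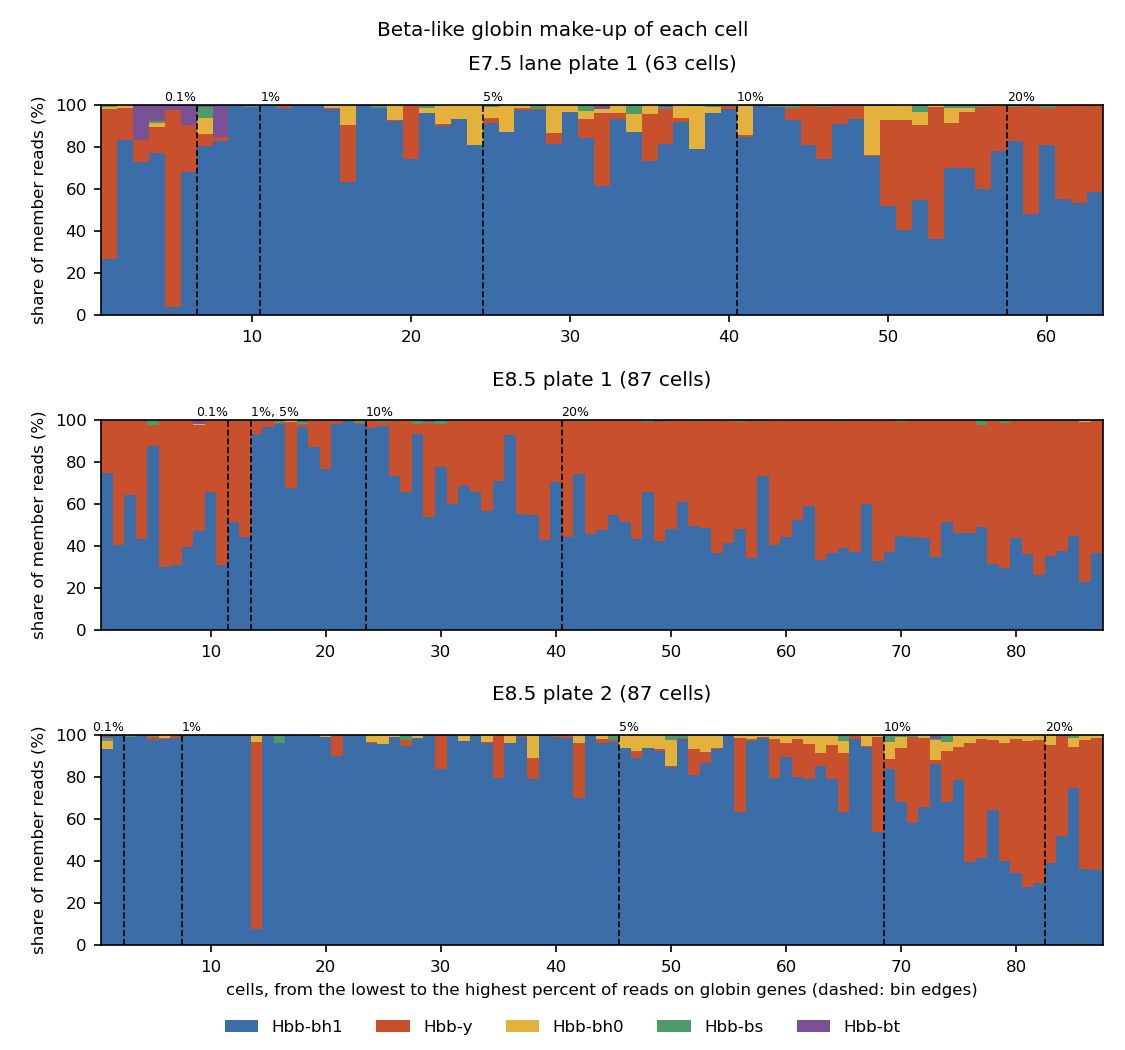
Share of member reads of each gene (percent, y axis, stacked bars) in every cell, with cells ordered along the x axis by their percent of reads on globin genes and dashed lines at the edges of the globin classes. From 5% globin to the right edge the red *Hbb-y* part widens on all 3 plates, it is also wide in some cells under 0.1% on the left of E7.5 lane plate 1 and E8.5 plate 1, and yellow *Hbb-bh0* is visible on E7.5 lane plate 1 and E8.5 plate 2, with a median share of 0.0216% on E8.5 plate 1.

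The shares of single cells rested on many reads. The SD of the *Hbb-y* share over cells was 20.6, 21.04 and 21.7 percentage points on E7.5 lane plate 1, E8.5 plate 1 and E8.5 plate 2. The SD expected from counting reads, at the median cell, was 0.0962, 0.122 and 0.0864 percentage points. Amplified copies of 1 molecule count as separate reads in it, so sampling of molecules could add more, by an amount not measured. The cells with shares held a median of 38325, 122094 and 17757 reads on the 5 genes. For example, 1 cell of E8.5 plate 1 had 15412 of 15444 reads on *Hbb-bh1* (99.8%, 99.7 to 99.9) with 9.33% of its reads on globin genes. Another cell of that plate had 48952 of 64018 on *Hbb-y* (76.5%, 76.1 to 76.8) with 37.1% of its reads on globin genes.

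How far a cell had turned to *Hbb-y* went along with how much globin RNA it held. On E8.5 plate 2, the median *Hbb-y* share was 0.273% in the 38 cells with 1 to 5% of reads on globin genes, alpha-like and beta-like together. It was 3.14% in the 23 cells with 5 to 10%, 37.0% in the 14 cells with 10 to 20% and 56.003% in the 5 cells with 20% or more. E7.5 lane plate 1 gave 0.132%, 1.66%, 21.5% and 42.99% in the same classes, with 14, 16, 17 and 6 cells. On E8.5 plate 1 no cell had 1 to 5%, and the medians were 2.35%, 31.3% and 55.6% in 10, 17 and 47 cells. At a matched globin level from 1% upwards, the medians of the 3 plates lay nearer to each other than those over all cells, which ranged from 0.951% to 50.6%. The plates differed in globin level itself, with medians of 6.53%, 21.02% and 4.16% of reads.

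The share of *Hbb-bh1* ran in the other direction. As the pair are the main parts of 1 sum, this largely follows from the rise of *Hbb-y* and is no second result. The median *Hbb-bh1* share went from 97.02% at 1 to 5% globin to 89.3%, 75.6% and 56.8% in the higher classes of E7.5 lane plate 1. It was 96.7%, 68.5% and 44.1% on E8.5 plate 1 from 5% upwards. On E8.5 plate 2 it was 98.96%, 89.1%, 61.1% and 39.3%. The fall was one of share and not of level. Per 1000000 reads outside the globin genes, the median of *Hbb-bh1* on E8.5 plate 2 was 21036 at 1 to 5% globin and 111932 at 20% or more. Over the same classes *Hbb-y* went from 60.9 to 107646. On E7.5 lane plate 1 the figures were 17745 and 103428 for *Hbb-bh1*, and 27.2 and 77945 for *Hbb-y*. The sum of such levels must rise with the globin class, so what can be read here is the unequal rise of the pair.

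**Figure D2:**
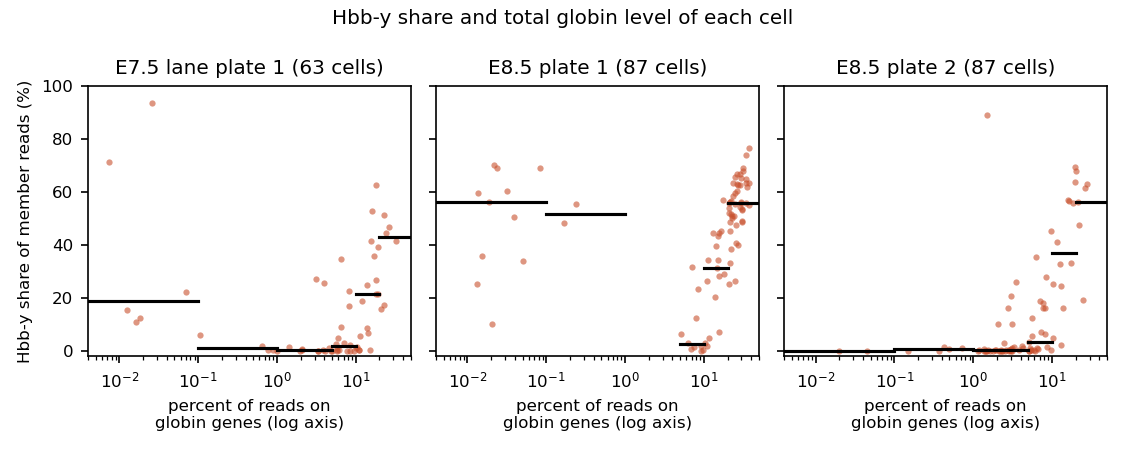
*Hbb-y* share of member reads (percent, y axis) against the percent of all reads on globin genes (x axis, log) for the cells of each plate, with black bars at the median of each globin class. Above 5% globin the points climb on all 3 plates, to medians of 42.99%, 55.6% and 56.003% in the top class.

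Over all cells with shares, Spearman's rho between the *Hbb-y* share and the globin level was 0.37 on E7.5 lane plate 1 (n = 63), 0.52 on E8.5 plate 1 (n = 87) and 0.72 on E8.5 plate 2 (n = 87). In cells with at least 5% globin it was 0.67 (n = 39), 0.82 (n = 74) and 0.81 (n = 42). The points of a plate share its library batch, and both axes share the *Hbb* reads, so no p is given. Against the alpha-like reads alone, which are on another chromosome and enter no share, rho was 0.32, 0.36 and 0.66 over all cells, and 0.55, 0.60 and 0.68 from 5% globin upwards. Against total reads per cell it was close to 0, with -0.00, -0.05 and -0.08. A minimum of 20 instead of 100 reads on the 5 genes turned the value of E7.5 lane plate 1 to -0.046, with 87 cells in place of 63.

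Wells with hardly any globin reads did not follow this order on E7.5 lane plate 1 and E8.5 plate 1. In the few cells with shares but less than 0.1% globin, the median *Hbb-y* share was 18.8% on E7.5 lane plate 1 (6 cells), 56.1% on E8.5 plate 1 (11 cells) and 0 on E8.5 plate 2 (2 cells). Most of these were not erythroid-like. The 11 cells were visceral endoderm-like or surface ectoderm-like, 4 of the 6 were myeloid-like, and the 2 were blood progenitor-like. Their shares therefore say little about red cells with little globin. On E8.5 plate 1, the 16 cells with less than 0.1% of reads on globin genes held 49979 CPM of visceral endoderm markers. They held 152.2 CPM of the 5 genes together. Of the reads on the 5 genes, 52.3% (50.6 to 53.9) were *Hbb-y* and 47.3% (45.6 to 49.02) *Hbb-bh1*, beside 50.1% and 49.5% over all cells of the plate. On E7.5 lane plate 1, the 36 such cells held 69.7 CPM with 33.7% (32.1 to 35.2) *Hbb-y*, beside 22.6% on the whole plate. On E8.5 plate 2, the 6 such cells held 158.7 CPM with 0.651% (0.178 to 1.66) *Hbb-y*, beside 30.2% on the whole plate. The mix in these wells was therefore near that of the plate on E8.5 plate 1 and far from it on E8.5 plate 2. Whether these reads were carried over from other wells was not tested.

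*Hbb-bh0* differed widely between the plates. Its median share was 0.6998% on E7.5 lane plate 1 (0 to 23.6%), 0.0216% on E8.5 plate 1 (0 to 0.912%) and 1.28% on E8.5 plate 2 (0 to 12.5%). Divided by exonic length, the medians were 3.24%, 0.104% and 5.91%. A share of at least 1% was found in 30 of 63 cells on E7.5 lane plate 1 (47.6%, 34.9 to 60.6), in 0 of 87 on E8.5 plate 1 and in 46 of 87 on E8.5 plate 2 (52.9%, 41.9 to 63.7). The upper limit for E8.5 plate 1 was 4.15% of cells. The difference was there at a high globin level too. Among cells with at least 5% globin, 73 of 74 on E8.5 plate 1 were under 0.2%, the highest of them at 0.119%, and the remaining cell was at 0.912%. On E8.5 plate 2, 35 of 42 such cells were at 1% or more, 4 were under 0.2% and 3 lay between.

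E7.5 lane plate 1 held both kinds of cell. Of its 39 cells with at least 5% globin, 20 had at least 1% *Hbb-bh0*, 18 had less than 0.2%, and 1 lay between. The highest was a cell with 12638 of 53512 member reads on *Hbb-bh0* (23.6%, 23.3 to 23.98), so its reads were not a trace. At 20% globin or more, the *Hbb-bh0* median was 0.0354% on E7.5 lane plate 1 and 0.0342% on E8.5 plate 1, but 2.36% on E8.5 plate 2. Over cells from 5% globin upwards, rho between the *Hbb-bh0* and the *Hbb-y* share was -0.18, 0.42 and -0.34 on the 3 plates, with no common sign.

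The adult pair had low median shares on the 3 plates, with single cells well above them. *Hbb-bs* plus *Hbb-bt* had a median share of 0.502% on E7.5 lane plate 1 (0 to 16.6%), 0.219% on E8.5 plate 1 (0 to 2.20%) and 0.0678% on E8.5 plate 2 (0 to 3.92%). No read of either gene was seen in 6, 6 and 19 cells. *Hbb-bs* alone had medians of 0.245%, 0.171% and 0.0249%, and *Hbb-bt* of 0.0222%, 0.0190% and 0.00428%. The highest *Hbb-bt* share on E7.5 lane plate 1 was in a myeloid-like cell with 28 reads on *Hbb-bt* (16.6%, 11.3 to 23.05) and 0.0164% of its reads on globin genes. Next came an erythroid-like cell with 2111 of 14026 member reads on *Hbb-bt* (15.1%) and 0.654% of its reads on globin genes.

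**Figure D3:**
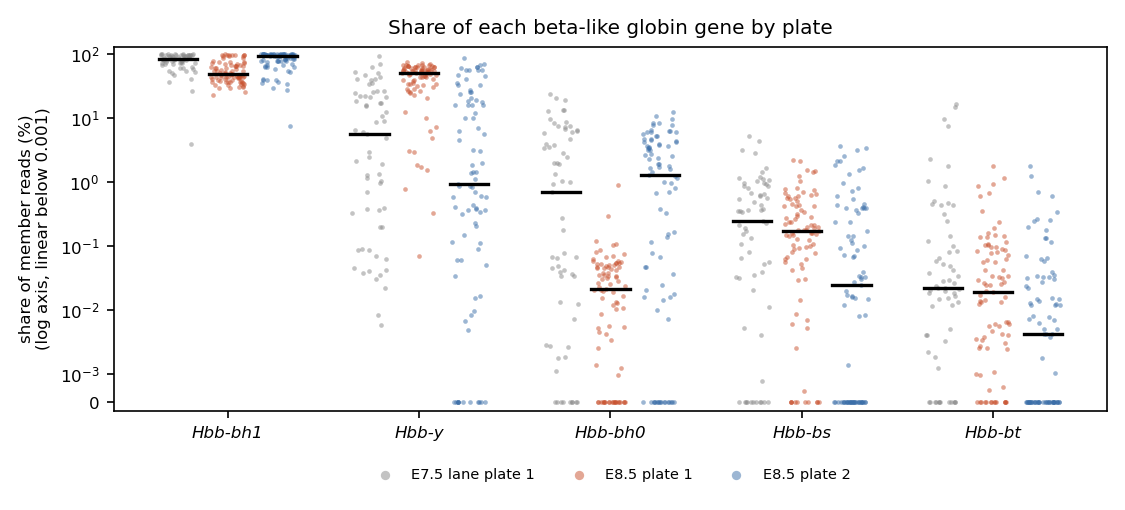
Share of member reads (percent, y axis, log above 0.001) of each gene in the cells of the 3 plates, 1 point per cell with black bars at the medians. *Hbb-bh0* on E8.5 plate 1 lies under 1% in every cell, whereas its points on the other plates reach 23.6% and 12.5%.

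The alpha-like side gives a second view of the same cells. Beta-like reads made up a median of 51.3% of globin reads on E7.5 lane plate 1, 63.97% on E8.5 plate 1 and 85.8% on E8.5 plate 2. Alpha-like genes had less than 1% of a cell's globin reads in 2, 0 and 12 of the cells of these plates. In the 12 cells of E8.5 plate 2, which had a median of 11529 member reads, the median *Hbb-bh1* share was 99.7%. The adult alpha genes *Hba-a1* and *Hba-a2* took a median of 16.96%, 9.67% and 23.5% of the alpha-like reads, with rho to the *Hbb-y* share of 0.51, 0.47 and -0.24 in cells with at least 5% globin.

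Among the other plates, E8.5 plate 5 held 31 cells with shares and E8.5 plate 6 held 29. They had far less globin, with medians of 0.523% and 0.102% of reads. All 31 cells of E8.5 plate 5 were megakaryocyte-like, and those of E8.5 plate 6 were 14 blood progenitor-like, 14 haematoendothelial-like and 1 erythroid-like. *Hbb-bh1* led here too, with medians of 98.6% and 98.8%, beside 0.0924% and 0.212% *Hbb-y*. Alpha-like reads were absent from 14 of 31 and 23 of 29 of these cells. *Hbb-bt* reached 47.9% in a cell of E8.5 plate 5. In the 50 cells of that plate with less than 0.1% globin it took 23.6% (21.9 to 25.5) of 2179 member reads, and on E8.5 plate 6 it took 6.26% (5.63 to 6.94) of 5384 reads in 77 such cells.

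Across all 19 plates the members were abundant on few. In summed cells, a larger number of red cells cannot be told apart from more globin RNA in each. *Hbb-bh1* summed over the cells of a plate reached 52075 CPM on E8.5 plate 1, 30910 on E8.5 plate 2 and 18686 on E7.5 lane plate 1. Next came E8.5 plate 5 with 3104, E7.5 lane plate 4 with 1285, E8.5 plate 7 with 999.5 and E8.5 plate 6 with 800.2. *Hbb-y* stood at 52727 CPM on E8.5 plate 1, 14012 on E8.5 plate 2 and 5710 on E7.5 lane plate 1, followed by E8.5 plate 7 with 2317. On the 4 plates of numbered E7.5 embryos the highest value of *Hbb-bh1* or *Hbb-y* was 0.0572 CPM. Per kilobase of exon, *Hbb-bh1* in the erythroid-like class stood at 81221 CPM and *Hbb-y* at 62744. By class, *Hbb-bh1* was at 49788 CPM in the erythroid-like cells, with plates between 30517 and 67618. It was at 14923 CPM in 78 blood progenitor-like cells and at 6653 in 41 megakaryocyte-like cells. In epiblast-like cells, which should lack globin, it was at 0.2 CPM, with a read in 5.93% of cells, beside 99.4% of erythroid-like cells. Median depths of these classes were 888148 and 958844 reads.

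**Figure D4:**
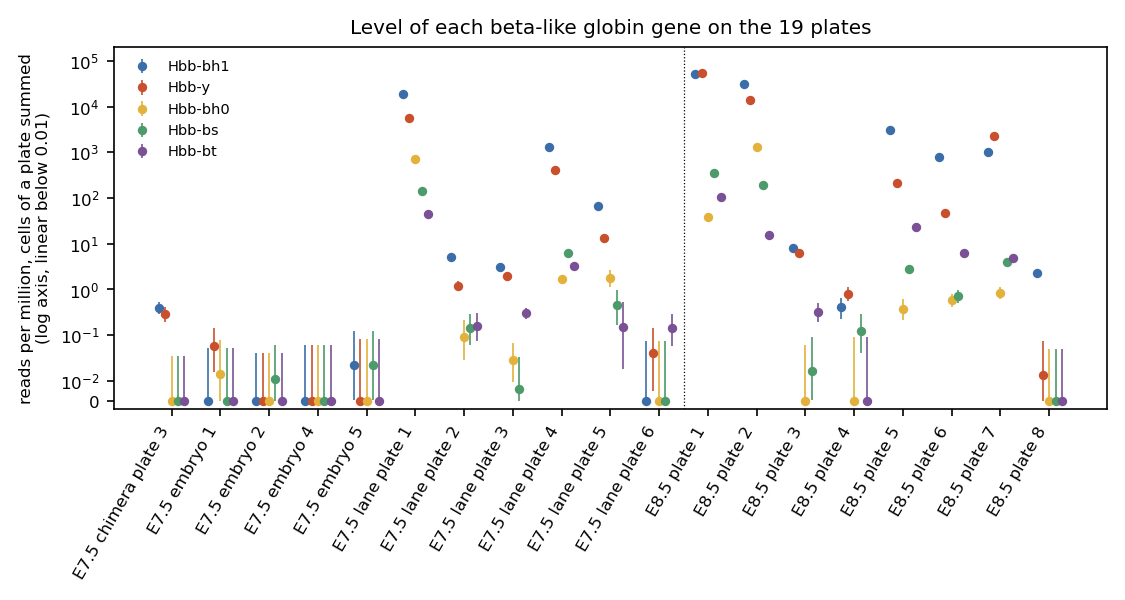
Reads per 1000000 reads (CPM) of each gene in the summed cells of the 19 plates (y axis, log above 0.01), with exact 95% intervals for counting error and a dotted line between E7.5 and E8.5. The first 3 ranks of *Hbb-bh1* are E8.5 plate 1, E8.5 plate 2 and E7.5 lane plate 1, and *Hbb-bh0* is higher on E8.5 plate 2 (1297 CPM) than on E8.5 plate 1 (37.8 CPM).

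Summed over the cells with shares, E8.5 plates 1 and 2 together were set against E7.5 lane plate 1. *Hbb-y* was 40963 CPM at E8.5 and 8644 CPM at E7.5, a log2 ratio of 2.24, and of 2.68 and 0.75 for the E8.5 plates taken singly. *Hbb-bh1* had a log2 ratio of 0.72 (0.95 and 0.18 singly), *Hbb-bs* of 0.53 (0.78 and -0.10) and *Hbb-bt* of 0.19 (0.70 and -2.02). *Hbb-bh0* had -1.10, which stood for -4.72 on E8.5 plate 1 and 0.33 on E8.5 plate 2. Thus 1 member was at least 2-fold higher and 1 at least 2-fold lower, beside 12.5% and 11.4% of the 8678 genes with at least 10 CPM at either stage. The median log2 ratio of those genes was 0.16 by total reads and 0.03 with edgeR's TMM library sizes, which put 42.7% of the 2-fold genes on the higher side in place of 52.4%. Only *Hbb-bh1* and *Hbb-y* were higher at E8.5 with either E8.5 plate alone. For *Hbb-bh1* with E8.5 plate 2 the value of 0.18 was near the 0.16 of all genes over both plates. TMM library sizes lowered the joint ratio of *Hbb-bh1* from 0.72 to 0.60.

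Genes outside the globins were ranked by how closely they followed the balance of the embryonic pair from cell to cell, as the mean over the 3 plates of Spearman's rho with log2((*Hbb-y* + 1)/(*Hbb-bh1* + 1)) of their reads. Among the 8 genes with the highest mean were *Mgst3* (0.45), *Hebp1* (0.42), *Gpx1* (0.40), *Slc25a37* (0.39), *Rhag* (0.36) and *Slc4a1* (0.35). *Slc25a37* carries iron into mitochondria, *Hebp1* binds haem, *Rhag* and *Slc4a1* sit in the red cell membrane, and *Gpx1* removes peroxides. The 8 lowest were *Hmga1* (-0.40), *Hmga1b* (-0.38), *Lmo2* (-0.35), *Fscn1* (-0.33), *Ppp3r1* (-0.33), *Ifitm2* (-0.32), *Cdk4* (-0.32) and *Kit* (-0.31). *Kit* is the stem cell factor receptor of progenitors, *Lmo2* a bridging factor of early blood complexes and *Cdk4* a kinase of the cell cycle. *Hmga1* and *Hmga1b* are near-identical copies whose reads may be split between them. Of 6857 genes ranked, 10.5% had rho above 0 and 22.6% below 0 on all 3 plates.

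Listed red cell maturation genes leaned one way. Of 18 measured, 16 had rho above 0 on all 3 plates and 0 below, with a median of 0.31. Over all genes ranked, 10.5% were above and 22.6% below 0 on all 3 plates, with a median of -0.03. *Fech*, which closes haem synthesis, had 0.21, 0.43 and 0.34 on the 3 plates. *Alas2* had 0.25, 0.35 and 0.37. *Tfrc*, the transferrin receptor, had -0.02, 0.16 and 0.30. The same 18 genes had a median rho of 0.63 with the globin level itself, so they followed the amount of globin more closely than its balance. In cells with at least 5% globin, 17 of 19 measured were above 0 on all plates, with a median of 0.40, beside 12.8% above and 20.8% below among 6587 genes.

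The listed regulators of the locus were mixed. Of 9 measured, 1 was above 0 and 3 were below 0 on all plates, with a median of -0.04. *Klf1*, the erythroid Krüppel-like factor, had 0.05, 0.21 and 0.42. *Gata1* had -0.13, 0.01 and -0.05, *Tal1* had -0.01, 0.06 and -0.18, and *Lmo2* -0.41, -0.32 and -0.32. *Chd4* and *Hdac1*, parts of repressive chromatin complexes, had means of -0.12 and -0.18. *Bcl11a*, *Sox6*, *Myb*, *Zbtb7a*, *Klf2*, *Klf3* and *Mbd2* did not reach 10 CPM on every plate. Of the progenitor genes, 5 of 14 were measured. *Kit*, *Itga2b*, *Runx1* and *Hhex* were below 0 on all plates, with means between -0.31 and -0.20, and *Lyl1* was above 0 on all plates, with a mean of 0.22. Of 13 proliferation genes, 1 was above and 2 were below 0 on all plates, with a median of -0.01. From 5% globin upwards, 4 of 11 regulators were above and 4 below 0, 4 of 12 proliferation genes were above and 2 below, and 1 of 3 progenitor genes was above and 2 below.

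**Figure D5:**
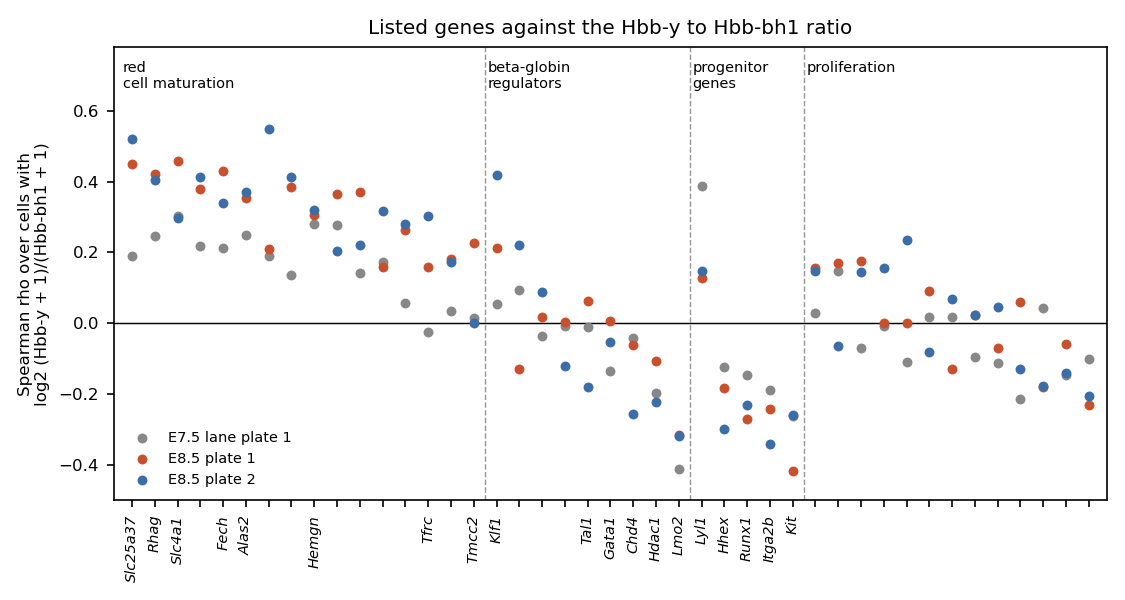
Spearman's rho over cells (y axis) between each listed gene and log2((*Hbb-y* + 1)/(*Hbb-bh1* + 1)), 1 point per plate, with genes grouped by list along the x axis and labelled where the text names them. The red cell maturation genes drawn lie above 0 on all plates except *Tfrc* and *Tmcc2*, while regulators and proliferation genes lie on both sides.

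Over the 19 plates, the genes whose summed level ranked most like *Hbb-y* included *E2f2* (rho 0.93), *Hemgn* (0.92), *Josd2* (0.90) and *D030028A08Rik* (0.87), out of 12224 genes. The same genes were among the 5 most like *Hbb-bh1*, with rho of 0.90, 0.91, 0.89 and 0.90 in this order. *Hemgn* is a gene of the red lineage. The plates differ in stage, in depth and in the number of erythroid-like cells they hold.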

How the data were processed

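The authors deposited whole-number read counts per gene and cell. Per the labels and the methods of the study, reads of 75 bases were aligned to GRCm38 with HISAT2 2.1.0 and counted with featureCounts on Ensembl gene models. Strand and multi-mapping settings were not stated. All 1824 columns matched a title, and 0 were left over. The members, lists and classes of globin level were chosen with earlier results of these data known.

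Globin level is the percent of a cell's reads on all alpha-like and beta-like rows. Clusters (scanpy 1.11.5, Leiden resolution 1, globins left out, at most 10% mitochondrial and 20% ribosomal reads) were named from marker lists. A class was named where at least 3 markers counted. Doublets were not called, since the sort took singlets. Likeness was ranked among non-globin genes with at least 10 CPM on each of the 3 plates, taking the 8 highest and 8 lowest with 1 sign on all of them. Some genes that this rule or the lists hold are not reported here. Stage ratios used CPM + 1. Intervals are Clopper-Pearson or Poisson (scipy 1.17.1). Positions came from GENCODE M21. Fold and correlation steps were tested on simulated data. Alternatives covered read minimums, length, quality limits, thinning to 100000 reads (cells left with at least 10 member reads), the erythroid-like class, pooling and scaling (edgeR 4.0.16, DESeq2 1.42.0). The subset with at least 5% globin was added after seeing the data. Depth limits the shares: with a floor of 3 counts, which is lower than the exact limit, a gene with 0 of 100 member reads may still have a share of 3%.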

Additional observations from a re-analysis of the deposited data

Results flagged for a closer look

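Among the 8 E8.5 plates, 3 members had 1 plate far from the others by the size of the gap. Such gaps arise by chance in about 1 in 20 groups of like samples, but these plates held different cell types and most were near 0, so the gaps are descriptions and no measure of chance. *Hbb-y* was 52727 CPM on E8.5 plate 1, with the next plate at 14012. *Hbb-bh0* was 1297 CPM on E8.5 plate 2, with the next at 37.8. *Hbb-bt* was 105.4 CPM on E8.5 plate 1, with the next at 22.7. *Hbb-bh2*, a beta-like gene outside the 5 members, had reads on the 3 plates above the limit that a count of 0 allows, at 9.16 CPM on E7.5 lane plate 1, 13.5 CPM on E8.5 plate 1 and 10.9 CPM on E8.5 plate 2. These are values, and their part in the results above was not tested.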

How the results depend on the processing

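Under other settings most values moved by less than the spread. For the stage ratios of the members, this spread was the SD between the ratios with each E8.5 plate alone. It is wide where those plates differ, as for *Hbb-bh0* with -4.72 and 0.33, so a move within it shows little about stability. The sign changed for the rank correlation on E7.5 lane plate 1 and for the stage ratios of *Hbb-bh0*, *Hbb-bs* and *Hbb-bt*. For 9 of 27 results no setting moved the value by more than the spread. No paired analysis was possible because the replicate numbers of the labels are wells and no test was made. The rank correlation of the *Hbb-y* share with globin level on E7.5 lane plate 1 was -0.046 with at least 20 member reads, 0.57 with at least 1000, 0.55 in the erythroid-like class and 0.67 from 5% globin, a subset chosen after seeing the data. On E8.5 plate 1 it was 0.79 with at least 1000 reads and 0.82 in either subset. Divided by length, *Hbb-bh1* was 75.1% on E7.5 lane plate 1 and 83.9% on E8.5 plate 2, and *Hbb-bh0* was 3.24%, 0.104% and 5.91% on the 3 plates. In the erythroid-like class of E8.5 plate 2, *Hbb-y* was 17.8%, *Hbb-bh1* 76.6%, the adult pair 0.147% and *Hbb-bh0* 3.401%, with *Hbb-y* above *Hbb-bh1* in 23.5% of cells. From 5% globin that plate gave 17.2%, 79.1% and 3.66% for *Hbb-y*, *Hbb-bh1* and *Hbb-bh0*, with 21.4% of cells. Shares of summed reads were 22.6% *Hbb-y*, 73.9% *Hbb-bh1* and 2.80% *Hbb-bh0* on E7.5 lane plate 1, 0.439% for the adult pair and 0.0359% *Hbb-bh0* on E8.5 plate 1, and 30.2%, 66.6%, 0.453% and 2.79% for *Hbb-y*, *Hbb-bh1*, the adult pair and *Hbb-bh0* on E8.5 plate 2. Without E8.5 plate 1 the stage log2 ratios were 0.75 for *Hbb-y*, 0.33 for *Hbb-bh0*, -0.10 for *Hbb-bs* and -2.02 for *Hbb-bt*, and without E8.5 plate 2 that of *Hbb-bh0* was -4.72. The share of genes at least 2-fold higher was 44.5% with no minimum CPM (18.2% lower), 7.67% with 50 CPM and 7.69% from 5% globin. Causes were not tested.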

Other observations

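Some single cells lay far from others of the same globin level. A cell of E8.5 plate 2 had 9955 of 11196 member reads on *Hbb-y* (88.9%, 88.3 to 89.5) with 1.49% of its reads on globin genes, in a class whose median *Hbb-y* share was 0.273%. A cell of E7.5 lane plate 1 with 9.53% globin had 3 of 50714 member reads on *Hbb-y*. On E8.5 plate 1, *Hbb-bs* peaked in a cell with 6904 of 315755 member reads (2.19%, 2.14 to 2.24) and 30.4% globin.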
